A study of Mus musculus with 9 samples.

Results

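The genes described here are 38 components of the junctions that hold keratinocytes together, namely 19 desmosomal genes, 14 tight junction genes, the adherens junction cadherin Cdh1 and 4 connexins. They were chosen by name from the FPKM table, which lists 34637 genes, and all 38 were found there and joined to the count table of 55401 genes by gene identifier. The libraries came from the dorsal skin of male C57BL/6 mice of 6 to 8 weeks in which dermatitis had been raised with the hapten DNCB. Every mouse was sensitized on day 1 with 200 μL of 1% DNCB and challenged from day 4 to day 21 with 100 μL of 0.5% DNCB. The Model group (n = 4) then received an equal amount of water, and the FJDHF-M group (n = 5) received the Fangji Dihuang formulation, a herbal medicine, by mouth daily after day 7 until day 28. Undiseased skin was not analysed here, so both groups carry the DNCB treatment and no value shows a change away from normal skin or back to it.

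The libraries have the codes MR1, MR3, MR3_4, MR4_5 and MR5, taken as the FJDHF-M group, and MXL1, MXL12, MXL3_4 and MXL_3, taken as the Model group. This assignment was inferred, since 5 and 4 columns match the group sizes and MX abbreviates the Chinese for model, and no code was tied to a single mouse. Every direction given below depends on it.

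Desmosomes are spot junctions in which desmogleins and desmocollins, both cadherins, bridge neighbouring cells, and a plaque of plakoglobin, plakophilins and desmoplakin ties them to keratin filaments. The cadherins change as a keratinocyte moves outward, with Dsg3 and Dsc3 typical of the lower epidermis and Dsg1 and Dsc1 of the upper layers. Tight junctions of the granular layer seal the space between cells with claudins, occludin and junctional adhesion molecules bound to zonula occludens scaffolds. Gap junctions are channels of connexins through which neighbouring cells exchange ions and small molecules.

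Total counts per library were between 74648669 and 79474215. A gene at the limit of 3 counts in a library was at 0.0375 to 0.0415 CPM, a limit that covers counting error only. Of the 38 genes, 37 passed the filter on low counts. Cldn7 did not pass and was not tested, with 0 counts in MXL12 and MXL_3 and 4 to 22 counts in the other libraries.

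The library MXL_3 stood apart in these genes. It was below the gene mean in 36 of the 37 tested junction genes and the lowest of all libraries in 21 of them. A marker score is the mean log2(CPM + 0.5) of the marker genes of a cell type, 12 for basal keratinocytes. The other scores given in this paragraph rest on 7 (fibroblast) to 17 (differentiated keratinocyte) genes. MXL_3 also had the lowest basal keratinocyte score, 6.29, against 6.69 to 7.98 elsewhere. Its skeletal muscle score of 10.35 and its fibroblast score of 11.75 were the highest of the 9 libraries. The differentiated keratinocyte, activated keratinocyte and sebaceous gland scores were lowest in MXL_3 too, at 6.80, 4.31 and 4.10. At the other end, MR4_5 was below the gene mean in 2 of the 37 genes and the highest library in 11. The same counts over all genes are not given here for either library. In bulk skin, fewer keratinocytes and less RNA per keratinocyte cannot be told apart.

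No junction gene passed the test between the FJDHF-M and Model groups. In the quasi-likelihood test of edgeR, adjusted by Benjamini-Hochberg over 20817 genes, 0 of the 37 genes had an adjusted p under 0.05, and the percentage called among all genes was 0. At an unadjusted p under 0.05, 1 junction gene was called, the connexin Gjb5, and it was higher in the FJDHF-M group. Among all genes 1.57% were called at that level, with 0.773% higher and 0.793% lower, and 1 call among 37 genes is near that share. DESeq2 called 0 junction genes after adjustment (0.00961% of all genes) and Gjb5 alone at an unadjusted p under 0.05 (2.21% of all genes). The limma fit on log2(FPKM + 1) called 0 and again Gjb5 alone, against 0 and 1.62% of all genes. With the skeletal muscle score as covariate 5 junction genes had an unadjusted edgeR p under 0.05, Dsc1, Perp, Dsg1a, Dsg1b and Gjb5, against 2.26% of all genes, and all 5 were higher in FJDHF-M. Without MXL1 the number was also 5, Gjb5, Cdsn, Cldn23, Jup and Ppl, against 3.45% of all genes. After adjustment 0 junction genes were called in either fit.

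Directions were evenly divided. Of the 37 genes, 18 had a higher and 19 a lower estimate in the FJDHF-M group, with a median log2 fold change of -0.0077. Over all genes tested the median was -0.032, with 9186 higher and 11631 lower. Single estimates ran from -0.64 (SE 0.67) for Dsg4, a desmoglein of the hair follicle, to 0.69 for Dsc1, a desmocollin of the upper epidermis. No junction gene had an estimate of a factor of 2 or more, against 829 of the 20817 genes tested. The groups overlapped in all 37 genes, whereas 0.231% of all genes were higher and 0.283% lower without overlap. In the exact permutation test of log2(CPM + 0.5), 0 of the 37 genes had a p under 0.05, against 0.975% of all genes higher and 0.956% lower. The smallest p this two-sided test can give with 5 and 4 libraries is 0.00794.

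**Figure D1:**
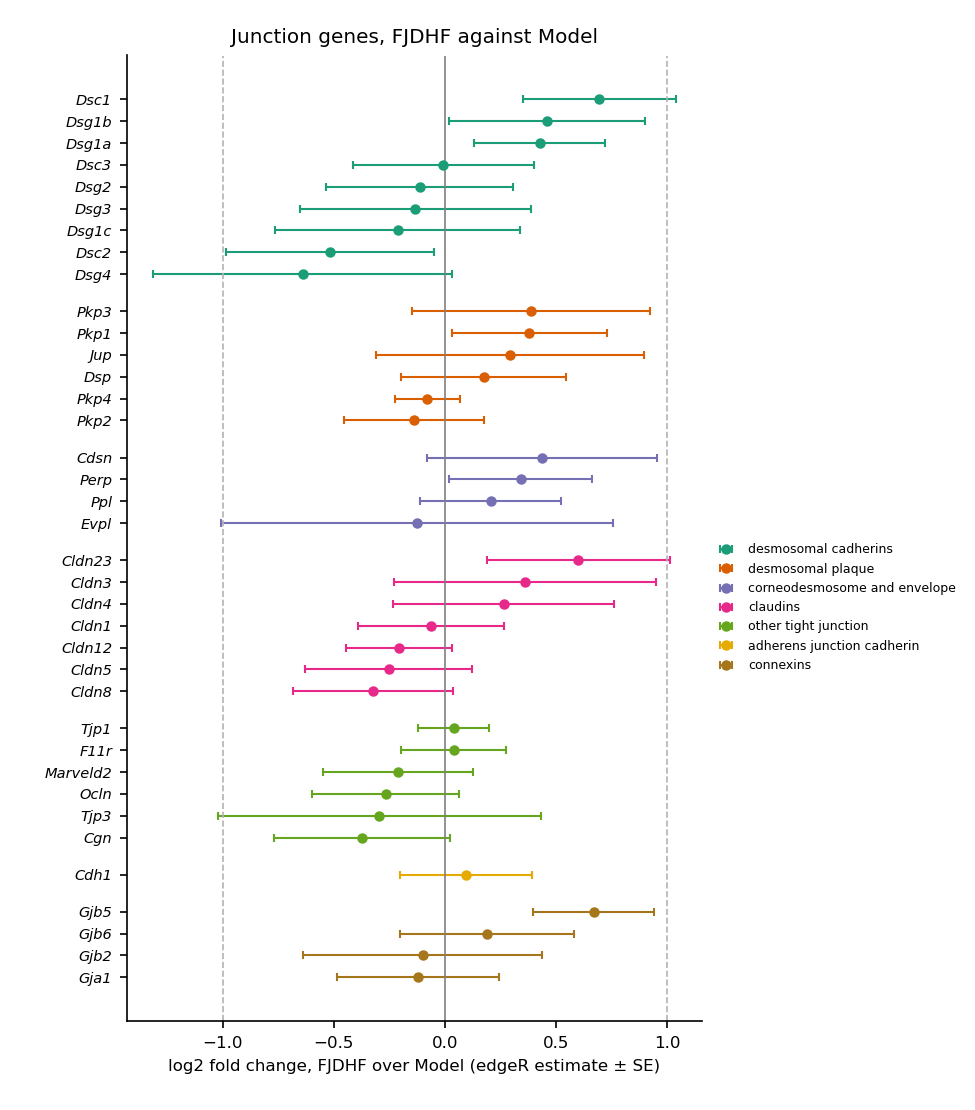
The log2 fold change of each tested junction gene (horizontal axis, FJDHF over Model) is plotted by the role of its product, with bars for the standard error of the edgeR estimate and dashed lines at a factor of 2. The 18 positive and 19 negative estimates lie between -0.64 and 0.69, and most bars cross 0.

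The desmosomal cadherins covered a wide range of levels. By mean FPKM, Dsg1a led with 163, followed by Dsc3 with 155 and Dsc1 with 106. FPKM is scaled for length, but the length used for each gene is not given, so orders between genes are approximate. In FJDHF-M, Dsg1a had 1096 CPM and 185 FPKM, and Gja1 1029 CPM and 97.2 FPKM. The longest protein-coding transcript of Dsg1a has 5686 bases and that of Gja1 3182. Dsg3 followed at 43.1 and Dsg1b at 34.8. Dsg4, Dsc2, Dsg2 and Dsg1c were lower, between 1.15 and 16.9 FPKM. Dsg1a was at 185 ± 51.4 FPKM in FJDHF-M and 136 ± 48.4 in Model (SD, n = 5 and 4), a difference close to the SD. Dsc3 was at 156 ± 74.4 and 153 ± 64.2 FPKM, which differed by less than the SD. Dsg1a, Dsg1b and Dsg1c are close copies of each other and lie side by side, so the split of reads among them is uncertain.

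Dsc1 had the largest positive estimate. It lies at chr18:20084184-20114871 on the minus strand of GRCm38. In MR1, MR3, MR3_4, MR4_5 and MR5 it stood at 615, 508, 487, 1054 and 696 CPM. In MXL1, MXL12, MXL3_4 and MXL_3 it stood at 431, 525, 529 and 175 CPM. The FJDHF-M libraries thus reached higher, but MR3 and MR3_4 lay below MXL12 and MXL3_4. The log2 fold change was 0.69 (SE 0.34, edgeR unadjusted p = 0.0706, adjusted p = 1), and the exact permutation p was 0.0794. Without MXL_3 it was 0.44.

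Dsc3, the desmocollin of the basal and lower spinous layers, had no such tilt. Its 5 FJDHF-M values were 650, 675, 440, 1250 and 1343 CPM, in the order of libraries used for Dsc1. The 4 Model values were 952, 1058, 1149 and 347 CPM. The MXL_3 value was far below the other Model values, and the FJDHF-M libraries surrounded those on both sides. Its estimate was -0.0077 (SE 0.41), and the sign differed between alternatives.

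The desmogleins gave a like picture with larger overlap. Dsg1a stood at 1107, 792, 832, 1430 and 1321 CPM in the FJDHF-M libraries and at 896, 900, 1064 and 405 CPM in the Model libraries. The estimate was 0.43 (SE 0.30, edgeR unadjusted p = 0.179). Dsg1b had an estimate of 0.46 (SE 0.44) and Dsg1c of -0.21 (SE 0.55), and neither passed the test. Dsg3, the desmoglein of the lower layers, ranged from 127 to 498 CPM in FJDHF-M and from 91.3 to 475 CPM in Model, with an estimate of -0.13 (SE 0.52). Dsg2 and Dsc2, found in simple epithelia and in the basal layer, had estimates of -0.11 (SE 0.42) and -0.52 (SE 0.47).

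Upper against lower layer cadherins were also compared as ratios within a library, which do not depend on library size. The log2 ratio of Dsc1 to Dsc3 counts was -0.081, -0.41, 0.15, -0.25 and -0.95 in the FJDHF-M libraries and -1.14, -1.01, -1.12 and -0.99 in the Model libraries. All 5 FJDHF-M values lay above all 4 Model values, although MR5 exceeded MXL_3 by little. The 4 Model libraries held a nearly constant ratio (mean -1.06 ± 0.077, SD), also in MXL_3, where both genes were low. The FJDHF-M libraries were spread more widely (mean -0.31 ± 0.41, SD). The difference of 0.76 had an exact permutation p of 0.0159, and after Benjamini-Hochberg adjustment over the 5 ratios compared it was 0.0794, which missed the threshold of 0.05. It was 0.64 to 0.92 when single libraries were left out. This was the 1 ratio of 5 without overlap. No share over ratios of other gene pairs is given here, and the 5 ratios were chosen with earlier results of these data known.

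The differentiated keratinocyte score was also higher on average in FJDHF-M, although the groups overlapped. It is the mean log2(CPM + 0.5) of 17 genes of the upper epidermis, none of them a junction gene, and it was 8.05 to 8.74 in FJDHF-M and 6.80 to 8.27 in Model (exact permutation p = 0.0238 for the difference of 0.92). That p is unadjusted and the smallest among the cell type scores compared. In the edgeR fit, 16 of those 17 genes had higher and 1 a lower estimate. An unadjusted p under 0.05 was found for 9 of them, and an adjusted p under 0.05 for 0. The basal score was 6.69 to 7.76 in FJDHF-M and 6.29 to 7.98 in Model (exact permutation p = 0.651). All 17 upper and all 12 basal markers were detected. Both the differentiated score and the Dsc1 to Dsc3 ratio were thus higher on average in FJDHF-M. The part of the score in the Dsc1 to Dsc3 ratio was not tested.

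For the summed Dsg1 genes against Dsg3 the ratio leaned the same way with overlap. It was 2.89, 1.99, 2.85, 1.83 and 1.65 in the FJDHF-M libraries and 1.60, 1.17, 1.55 and 2.31 in the Model libraries. MXL_3 lay above 3 of the 5 FJDHF-M libraries, and every other Model library lay below all of them. The difference of 0.58 did not pass (exact permutation p = 0.175, adjusted p = 0.437).

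Plaque and envelope genes showed no call. Desmoplakin, encoded by Dsp and the link between the plaque and keratin filaments, was at 1557, 2474, 1298, 3365 and 2447 CPM in FJDHF-M and at 2807, 1735, 2483 and 872 CPM in Model. The groups overlapped over most of their range, and the log2 fold change of 0.17 (SE 0.37) turned to -0.072 without MXL_3. Pkp1, a plakophilin of the upper epidermis, had an estimate of 0.38 (SE 0.35, edgeR unadjusted p = 0.298). Of the 6 plaque genes 4 had a higher estimate, with a median of 0.23. Pkp3 had an estimate of 0.39 (SE 0.53), Jup of 0.29 (SE 0.60; 1.27 without MXL1), Pkp4 of -0.079 (SE 0.15) and Pkp2, at 1.40 FPKM the lowest of the plaque genes, of -0.14 (SE 0.31). Pkp4 varied least of the tested junction genes, with an SD of 0.17 over the 9 libraries on the log2 scale.

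Perp, a tetraspan protein of desmosomes, had the highest mean FPKM of the 38 genes, 951. Its FPKM was 1055 ± 253 in FJDHF-M and 820 ± 337 in Model (SD, n = 5 and 4), and the lowest value by far was that of MXL_3 at 328. The next gene in the order, Gjb2 at 242 FPKM, was below Perp in every library. The log2 fold change of Perp was 0.34 (SE 0.32, edgeR unadjusted p = 0.316) and 0.083 without MXL_3. Corneodesmosin, encoded by Cdsn and an adhesive protein of the outermost layers, had an estimate of 0.44 (SE 0.52) and of 1.23 without MXL1, and Ppl, encoding periplakin, of 0.21 (SE 0.32) and of 0.60 without MXL1. Envoplakin, encoded by Evpl and part of the cornified envelope with periplakin, differed 19.9-fold between its highest and lowest library and had an estimate of -0.13 (SE 0.88).

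**Figure D2:**
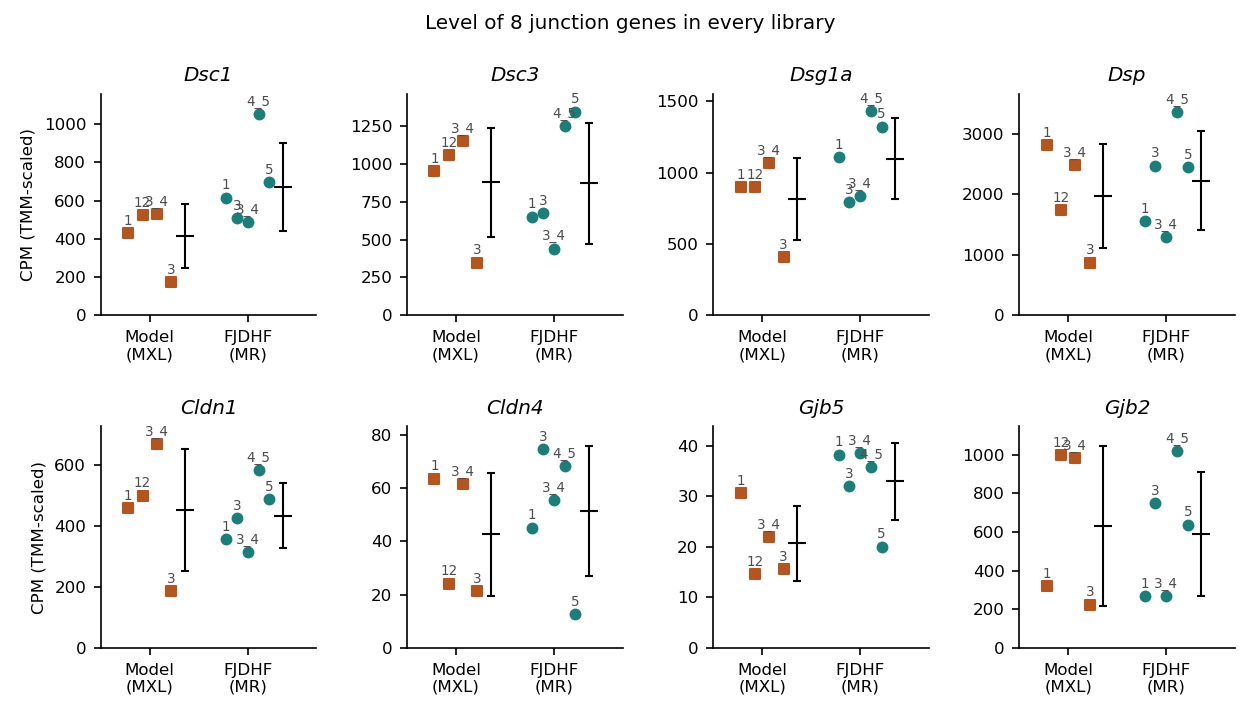
Each panel plots the level of 1 gene in CPM, starting at 0, in the 4 Model libraries (squares) and the 5 FJDHF-M libraries (circles), labelled by the number in the library code. The black bar is the mean with the SD. The groups overlap in all 8 genes, and MXL_3 is the lowest Model library in 7 of them, the exception being Gjb5.

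Claudins had levels that differed widely. Cldn1, the main sealing claudin of the epidermis, had a mean of 87.2 FPKM, Cldn4 of 25.0, and Cldn12, Cldn8, Cldn23 and Cldn5 between 1.76 and 9.08 FPKM. Cldn3 and Cldn7 were near the limit of detection, with means of 0.182 and 0.0477 FPKM. Of the 7 tested claudins 3 had a higher and 4 a lower estimate, with a median of -0.063.

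Cldn1 stood at 357, 426, 314, 584 and 488 CPM in the FJDHF-M libraries and at 458, 499, 668 and 186 CPM in the Model libraries. Both the highest and the lowest library belonged to the Model group. An estimate of -0.063 (SE 0.33) resulted, whose sign differed between alternatives. Cldn23 had the largest claudin estimate, 0.60 (SE 0.41, edgeR unadjusted p = 0.176), from 11.4, 5.94, 10.5, 6.45 and 4.97 CPM in FJDHF-M and 9.43, 2.93, 5.33 and 3.04 CPM in Model. MXL1 and MXL3_4 lay within the FJDHF-M values, and without MXL1 the estimate was 1.06.

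Estimates of the other claudins were 0.36 (SE 0.59) for Cldn3, -0.21 (SE 0.24) for Cldn12, -0.25 (SE 0.38) for Cldn5, a claudin of endothelium, and -0.32 (SE 0.36) for Cldn8. Cldn4, a claudin of the granular layer, had an estimate of 0.26 (SE 0.50) and showed a gap inside the FJDHF-M group. It stood at 45.2, 74.7, 55.6 and 68.2 CPM in MR1, MR3, MR3_4 and MR4_5 and at 12.7 CPM in MR5. The Model libraries were at 63.6, 24.1, 61.6 and 21.4 CPM. The log2 ratio of Cldn4 to Cldn1 was -5.26 in MR5 and -3.10 to -2.50 in the other FJDHF-M libraries, whereas among the Model libraries MXL12 was at -4.37 and the others at -3.44 to -2.85. Thus, as measured, 1 library of each group was low in Cldn4 relative to Cldn1. After the GC correction described below MR5 was still the lowest library. MXL12 was then at -3.44, between MXL1 at -3.74 and MXL3_4 at -2.99. The measured difference of 0.18 between the groups did not pass (exact permutation p = 0.786, adjusted p = 0.786).

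The coding sequences of these claudins are of nearly equal length, 630 bases for Cldn4 and 633 for Cldn1, and differ in base composition, with 61.9% G and C in Cldn4 and 53.2% in Cldn1. Their last 300 coding bases are shown, 5′ to 3′ from the GENCODE M21 transcripts on GRCm38, to show how far this pair differs in base composition. Capitals mark G and C, which make up 62.7% of the Cldn4 stretch (chr5:134946116-134946415, minus strand, in its single coding exon) and 51% of the Cldn1 stretch (chr16:26359041-26363124, minus strand, spliced from 3 coding exons).
Cldn4: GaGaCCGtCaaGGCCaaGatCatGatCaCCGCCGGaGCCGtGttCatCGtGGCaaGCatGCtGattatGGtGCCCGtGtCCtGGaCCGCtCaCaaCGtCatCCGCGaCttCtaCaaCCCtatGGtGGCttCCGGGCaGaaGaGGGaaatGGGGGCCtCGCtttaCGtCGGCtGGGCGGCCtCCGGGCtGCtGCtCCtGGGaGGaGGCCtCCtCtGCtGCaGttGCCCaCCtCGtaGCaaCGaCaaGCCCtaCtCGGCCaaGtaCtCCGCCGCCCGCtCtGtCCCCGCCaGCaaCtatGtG
Cldn1: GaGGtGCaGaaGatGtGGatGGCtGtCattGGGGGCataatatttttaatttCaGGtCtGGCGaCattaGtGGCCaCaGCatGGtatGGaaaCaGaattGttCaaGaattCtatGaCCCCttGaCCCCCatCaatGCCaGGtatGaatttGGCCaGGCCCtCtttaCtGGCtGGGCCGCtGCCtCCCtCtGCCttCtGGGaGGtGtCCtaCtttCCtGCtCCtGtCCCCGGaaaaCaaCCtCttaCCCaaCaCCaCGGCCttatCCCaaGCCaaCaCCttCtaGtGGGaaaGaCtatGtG

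Levels of the junction genes also differed between libraries by the GC content of their transcripts. The 12 genes of highest GC content (53.8% to 62.8%) were Pkp1, Ppl, Cgn, Cldn23, Cldn4, Cdsn, Jup, Pkp3, Cldn5, Tjp3, Evpl and Cldn3. Their median deviation from the gene mean was 0.90 in MXL1 and 0.59 in MR3 on the log2 scale, but -0.85 in MXL12 and -0.60 in MR5. For the 12 genes of lowest GC content (40.6% to 45.5%), which include Dsc1, Dsc3, Dsg1a, Dsg3 and Cldn1, the medians in those libraries were 0.082, 0.0099, 0.30 and 0.34. So MXL1 and MXL12 differed in this way within the Model group, and MR3 and MR5 within FJDHF-M. MXL_3 was low in both classes, with medians of -0.83 and -1.17. The median log2 fold change between the groups was -0.13 in the 12 genes of lowest GC content, 0.038 in the 13 between and 0.28 in the 12 of highest.

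The same tilt was present across all genes. Over 15707 genes with a mean of at least 1 CPM, the Spearman correlation of a gene's deviation with its GC content was 0.60 in MR3 and 0.59 in MXL1, and -0.66 in MR5 and -0.61 in MXL12. Over the 37 junction genes it was 0.48, 0.52, -0.65 and -0.68 in the same libraries. Among the others it was 0.60 in MR3_4, 0.58 in MR1 and -0.67 in MXL3_4, where the values over all genes were 0.21, 0.29 and -0.40. These are correlations across genes of a library, and genes are not independent replicates. Subtracting the median deviation of genes of like GC content from each library, an alternative added after the data were seen, lowered the median SD of the 37 genes from 0.62 to 0.55. The SD became smaller in 30 of the 37 genes, for example from 1.03 to 0.56 in Jup, which encodes plakoglobin, and from 0.96 to 0.56 in Pkp3. The correction was estimated from these same libraries, so some narrowing is built in, and the share over all genes is not given here. A correlation with GC content over the junction genes was still present in MR3_4 (0.49) and MR1 (0.40). MXL_3 was below the mean as before in 36 of 37 genes. Why GC-rich genes differed between libraries was not tested.

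**Figure D3:**
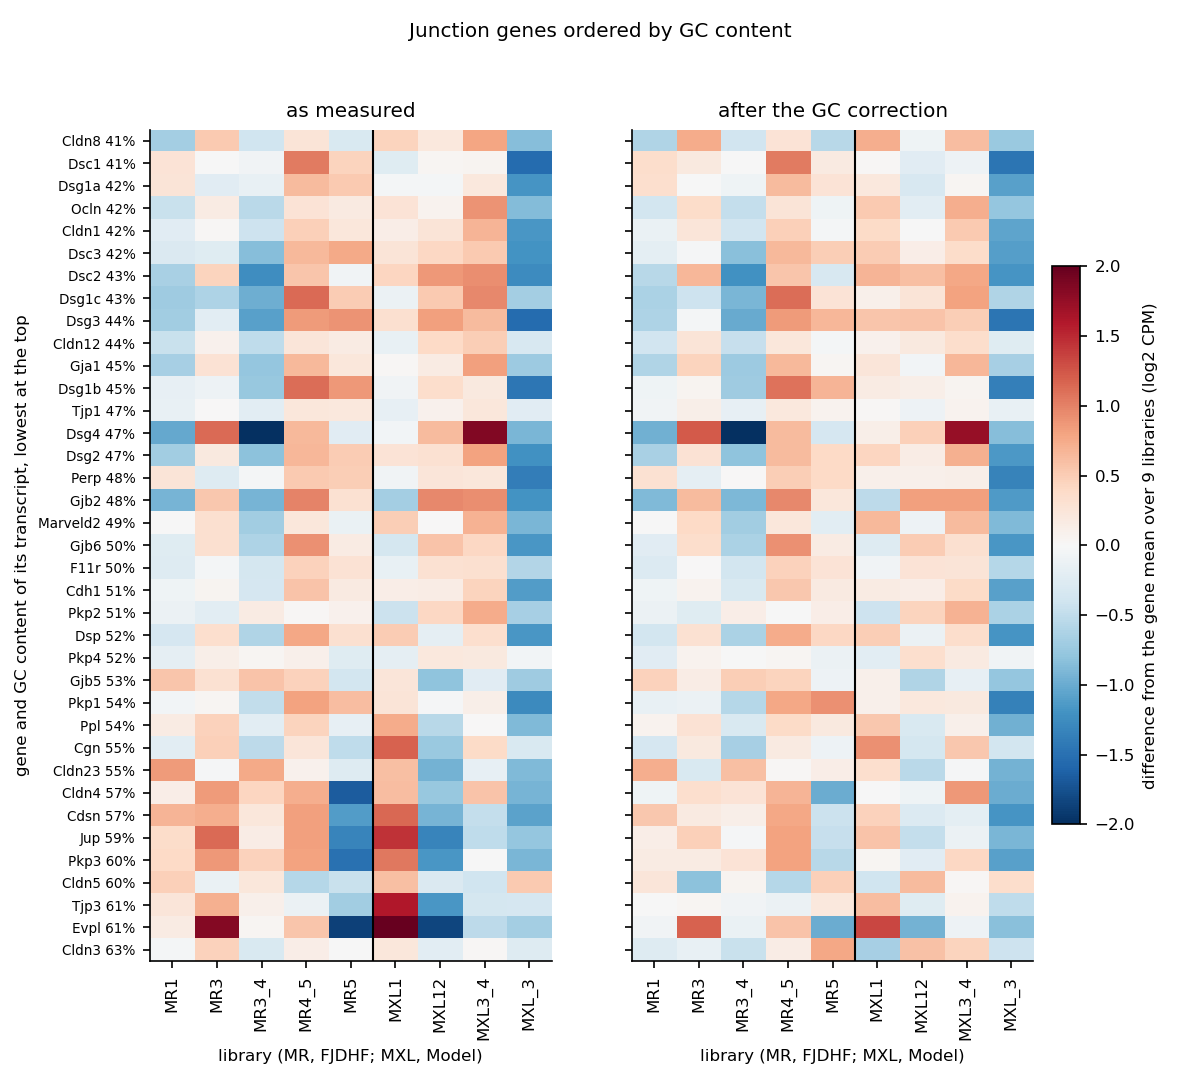
Rows are the 37 tested junction genes, ordered from low GC content at the top to high at the bottom, and columns are the libraries, with FJDHF-M left of the black line. Colour gives the log2 difference from the gene mean as measured (left) and after the GC correction (right), and differences beyond 2 have the end colour. In MR5 and MXL12 the bottom rows are low, and in MR3 and MXL1 they are high, a contrast that is weaker on the right, whereas MXL_3 stays low in nearly every row.

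With the GC correction 2 junction genes had an unadjusted p under 0.05, Gjb5 (log2 fold change 0.64, SE 0.21, edgeR unadjusted p = 0.0135) and Dsc1 (0.74, SE 0.31, unadjusted p = 0.0397), both higher in FJDHF-M. Among all genes 1.97% were called at that level, with 0.956% higher and 1.01% lower, and after adjustment 0 genes were called. By exact permutation both genes also had a p under 0.05 after the correction, against 2.24% of all genes. The Dsc1 to Dsc3 difference was 0.75 after the correction, since both genes have nearly the same GC content, 41.4% and 42.4%.

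The other tight junction genes were at low or moderate levels. F11r, encoding junctional adhesion molecule A, led with 39.5 FPKM and Tjp1, encoding the scaffold ZO-1, followed with 20.3. Ocln, encoding occludin, had 5.78 FPKM and Marveld2, encoding tricellulin of the junctions where 3 cells meet, 4.02. Cgn, encoding cingulin, was at 2.48 and Tjp3, encoding ZO-3, at 0.383 FPKM. Of these 6 genes 2 had higher and 4 lower estimates, with a median of -0.24. Tjp1 differed by a factor of only 1.37 between its highest and lowest library, and its estimate was 0.038 (SE 0.16). Marveld2, Ocln and Tjp3 had estimates of -0.21 (SE 0.34), -0.27 (SE 0.33) and -0.30 (SE 0.73), none beyond its error. F11r stood at 89.5, 105, 84.3, 148 and 131 CPM in FJDHF-M and at 96.4, 133, 134 and 71.5 CPM in Model, with an estimate of 0.038 (SE 0.24). Cgn had the smallest p of the 6 genes, 0.366 unadjusted in edgeR, with an estimate of -0.37 (SE 0.40) that turned to 0.10 without MXL1.

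Cdh1, encoding E-cadherin of the adherens junction, stood at 304, 335, 256, 479 and 365 CPM in FJDHF-M and at 355, 359, 440 and 148 CPM in Model. Its groups overlapped, and the estimate of 0.096 (SE 0.30) turned to -0.14 without MXL_3. The log2 ratio of Cdsn to Cdh1 was -0.47, -0.56, -0.69, -1.0 and -2.54 in FJDHF-M and -0.22, -2.34, -2.17 and -1.20 in Model. MR5 was again the lowest FJDHF-M library, and the difference of 0.43 did not pass (exact permutation p = 0.492, adjusted p = 0.786). After the GC correction the MR5 ratio was -1.85.

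**Figure D4:**
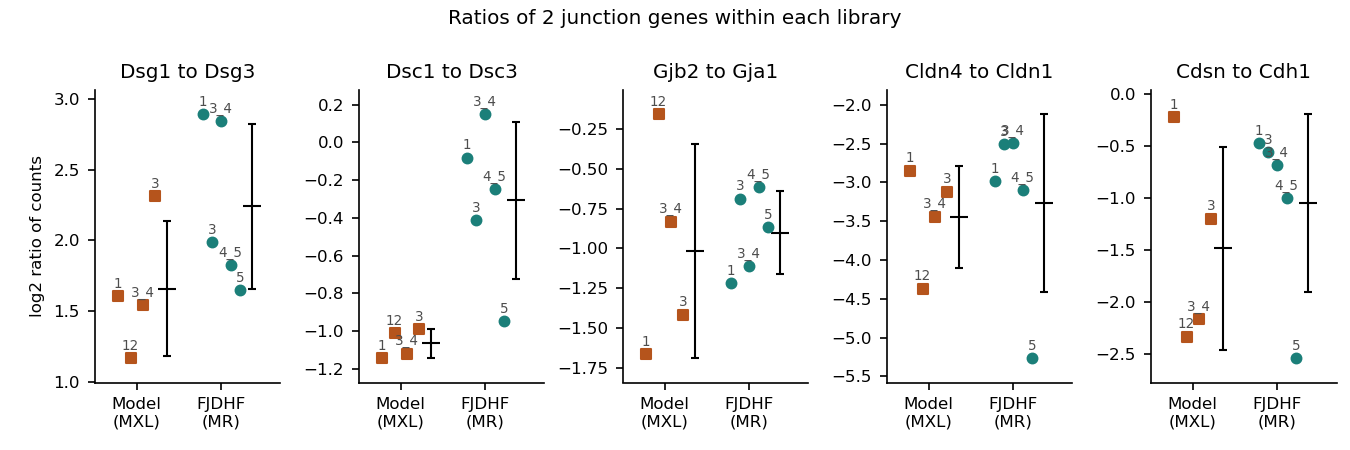
Each panel plots the log2 ratio of counts of 2 junction genes within every library, with Model libraries as squares and FJDHF-M libraries as circles, and the black bar is the mean with the SD. The vertical axes differ between panels and do not start at 0. For Dsc1 to Dsc3 the Model libraries lie between -1.14 and -0.99 and all FJDHF-M libraries above them, and in the other 4 panels the groups overlap.

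Among the connexins, Gjb5 gave the smallest p of all junction genes. It encodes connexin 31.1, a connexin of stratified epithelia, and lies at chr4:127354809-127358181 on the minus strand. In MR1, MR3, MR3_4, MR4_5 and MR5 it stood at 38.3, 32.1, 38.6, 35.8 and 20.1 CPM. In MXL1, MXL12, MXL3_4 and MXL_3 it stood at 30.7, 14.6, 22.0 and 15.7 CPM. The 4 highest values all belonged to FJDHF-M, and MR5 lay below MXL1 and MXL3_4. The log2 fold change was 0.67 (SE 0.27, edgeR unadjusted p = 0.0343, adjusted p = 1), and the exact permutation p was 0.0714. With single libraries left out the estimate was 0.53 to 0.92 and the unadjusted edgeR p 0.00578 to 0.0923, under 0.05 in 2 of the 9 cases, without MR5 and without MXL1.

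Gjb2, encoding connexin 26, had the highest mean FPKM of the 4 connexins and moved differently between libraries. It stood at 269, 751, 271, 1018 and 638 CPM in FJDHF-M and at 321, 997, 985 and 225 CPM in Model. Both groups held low and high libraries, and MR1 and MR3_4, which were high in Gjb5, were low in Gjb2. The estimate for Gjb2 was -0.10 (SE 0.54).

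Gja1, encoding connexin 43 of the lower and spinous layers, had a mean of 99.7 FPKM against 242 for Gjb2 and 15.2 for Gjb5. In CPM it stood at 626, 1210, 584, 1562 and 1165 in FJDHF-M and at 1016, 1113, 1753 and 600 in Model, with an estimate of -0.12 (SE 0.36). The order of Gjb2 and Gja1 depended on the measure. Their log2 ratio had means of -0.90 in FJDHF-M and -1.02 in Model by counts, but 1.19 and 1.07 by FPKM. The reason was not tested. By counts, the log2 ratio of Gjb2 to Gja1 was -1.22 to -0.62 in FJDHF-M and -1.66 to -0.16 in Model. The Model libraries enclosed the FJDHF-M libraries on both sides, and the difference of 0.12 had an exact permutation p of 0.730 and an adjusted p of 0.786. Gjb6, encoding connexin 30, had an estimate of 0.19 (SE 0.39).

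Levels of 3 junction genes moved with a keratinocyte marker score across the 9 libraries after adjustment over 74 relations. These relations were each of 37 genes with the basal and with the differentiated score. They were computed for the junction genes alone, so the share over all genes is not known. Gjb5 rose with the differentiated score (Pearson r = 0.92, permutation p = 0.000463, adjusted p = 0.0171, and Spearman rho = 0.90, permutation p = 0.00203, adjusted p = 0.0750). Without MXL12 and MXL_3, the libraries farthest from the median score, its r was 0.85. For Cldn23 and the same score r was 0.88 (permutation p = 0.0016, adjusted p = 0.0394, and rho = 0.92, permutation p = 0.00131, adjusted p = 0.0750), and 0.70 without those libraries. Ppl followed the basal score (r = 0.92, permutation p = 0.00046, adjusted p = 0.0171, and rho = 0.88, permutation p = 0.00308, adjusted p = 0.0759), with r = 0.89 without MR4_5 and MXL1. No Spearman correlation passed the adjustment. The differentiated score itself was higher on average in FJDHF-M, with an unadjusted exact permutation p of 0.0238. With levels and scores centred on their group means, a step chosen with the values known and given as a description, r was 0.86 for Gjb5, 0.88 for Cldn23 and 0.92 for Ppl. No r was computed within a single group of 5 or 4 libraries.

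The basal score had a positive r with 35 of the 37 genes (median 0.48) and the differentiated score with 31 of 37 (median 0.30). For the differentiated score, leaving out MXL12 and MXL_3 turned the median to -0.33, so the general relation with that score rests on those libraries. After the GC correction 12 relations passed, 7 with the basal score (Dsg1b, Dsg3, Dsc3, Dsp, Ppl, Cldn1 and Cdh1) and 5 with the differentiated score (Dsg1a, Dsc1, Cdsn, Cldn23 and Gjb5). No Spearman correlation passed there either. Dsg1a and Dsc1 also had r = 0.79 and 0.78 with the basal score, which did not pass. The 2 libraries farthest from the median of the corrected basal score were MR4_5 and MXL_3. Without them the median r with that score over the 37 genes dropped from 0.71 to 0.40, and that of Cdh1 from 0.83 to 0.47. For the differentiated score they were MXL12 and MXL_3, and without those r of Dsg1a dropped from 0.89 to 0.54. Whether a gene's correlations with the scores differ from each other was not tested. For these counts too the share over all genes is not known.

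**Figure D5:**
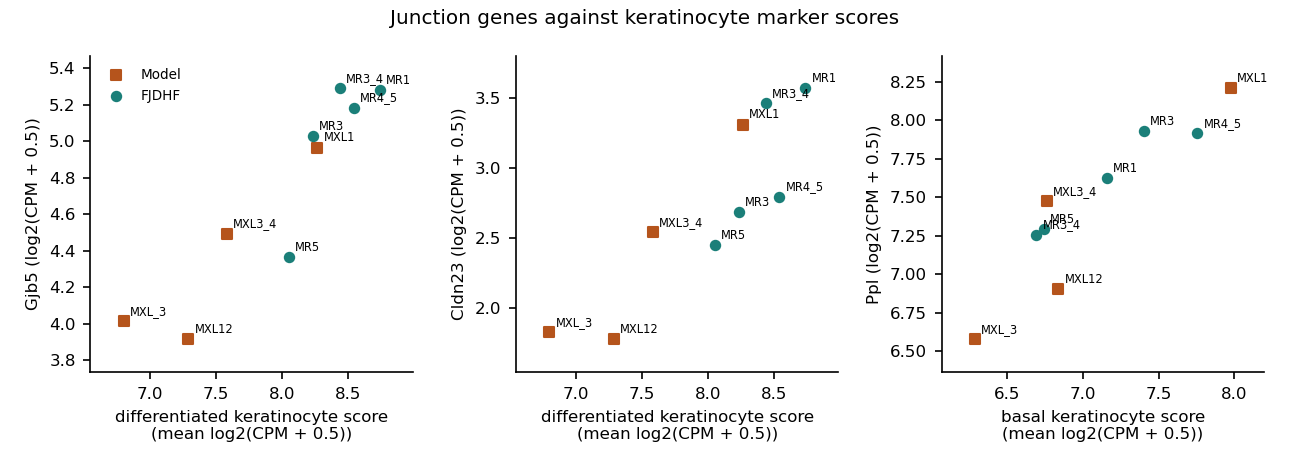
Each point is 1 library, with the mean log2(CPM + 0.5) of the marker genes of a keratinocyte layer on the horizontal axis and the log2(CPM + 0.5) of 1 junction gene on the vertical axis. The 3 panels show Gjb5 and Cldn23 against the differentiated score (r = 0.92 and 0.88) and Ppl against the basal score (r = 0.92), with MXL_3 at the low end of each horizontal axis.

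The other genes of the same junctions were read from the same fit. Of 66 listed, 53 were tested, and 21 had a higher and 32 a lower estimate in FJDHF-M, with a median of -0.081. After adjustment 0 were called, and at an unadjusted p under 0.05 1 was called, near the 1.57% of all genes. It was Cldn10, a claudin known from secretory epithelia. It stood at 18.5, 15.6, 14.1, 12.7 and 9.38 CPM in FJDHF-M and at 24.0, 16.8, 26.7 and 17.8 CPM in Model. MR1 alone lay within the Model range. The log2 fold change was -0.60 (SE 0.24, edgeR unadjusted p = 0.0281, adjusted p = 1), and the exact permutation p was 0.0397. The unadjusted edgeR p ran from 0.0147 to 0.0946 with single libraries left out, and was over 0.05 without MR4_5, MR5, MXL1 or MXL3_4. Nectin3, an adhesion molecule of adherens junctions, had the smallest p of its list, with an estimate of -0.26 (SE 0.24).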

How the data were processed

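Dorsal skin RNA of 4 Model and 5 FJDHF-M mice was measured by paired-end, strand-specific sequencing of polyadenylated RNA. The authors deposited whole-number read counts per gene without normalization, and FPKM values. FPKM is a measure scaled for length and depth, and the length used for each gene is not given. Per the labels, the submitters' processing notes name HISAT, StringTie, DESeq2 and the build mm10, without versions. The strand setting of the counting is not given in the sources used here, so Dsg2, Dsp, Cldn3 and Tjp3, whose exons overlap a gene on the opposite strand, may share reads with it. Codes such as MR3_4 were counted as 1 mouse each, and pooling could not be checked. A further 9 columns of the FPKM table are headed as counts and were not used. Whether libraries of a group came from separate cages or batches is not given. The p-values of group differences therefore set them against the spread between these libraries only.

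The count fit used edgeR 4.0.16 in R 4.3.3, with filterByExpr, TMM scaling, the quasi-likelihood test, no covariate and Benjamini-Hochberg adjustment over 20817 genes. CPM were TMM-scaled. Levels and ratios were compared with two-sided exact permutation tests over 126 splits, and correlations with all 362880 pairings, in Python 3.11.15 with scipy 1.17.1. Values were log2 after adding 0.5. GC content was that of the longest protein-coding transcript in GENCODE M21, known for 99.9% of tested genes, and the correction used 50 classes of GC content. Alternatives were DESeq2 1.42.0, its size factors in edgeR, limma 3.58.1 on log2(FPKM + 1), other filters, marker scores as covariates, a replicate block, GC corrections and each library left out. The steps were tested on simulated data.

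Named genes were the gene of smallest p and of highest FPKM in each role, the genes of the 5 ratios, and the gene of smallest p in each list of other junction genes. A result that this rule would name is not reported here. Other genes were named after their values were seen. The genes, lists and ratios were chosen with earlier results of these data known.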

Additional observations from a re-analysis of the deposited data

Results flagged for a closer look

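In 78 comparisons of a library with the rest of its group, 5 stood apart by Dixon's test at the 95% level, where chance gives about 3.9, so their number is near what chance gives. Each value is the gap to the nearest library divided by the range of the group.

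Within FJDHF-M, MR5 was apart and low in 4 of them. The value was 0.717 for Gjb5, 0.714 for Cldn4, 0.782 for the ratio of Cldn4 to Cldn1 and 0.745 for the ratio of Cdsn to Cdh1. Cldn4 and Cdsn have 56.8% and 57.4% GC in their transcripts, Cldn1 and Cdh1 have 42.3% and 50.7%, and MR5 had the most negative correlation of gene deviation with GC content, -0.66. After the GC correction MR5 was still the lowest library for both ratios, at -4.34 and -1.85. The part of base composition in these values was not tested beyond that correction.

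Within Model, MXL_3 was apart and low for Dsc3, with a value of 0.843. This library had the lowest basal and differentiated keratinocyte scores, 6.29 and 6.80, and the highest skeletal muscle, fibroblast and endothelial scores, 10.35, 11.75 and 5.80. Their part in the Dsc3 value was not tested.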

How the results depend on the processing

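No junction gene passed an adjusted p under 0.05 under any alternative run. Over all genes DESeq2 called 2. Without a filter 905 genes had an unadjusted edgeR p under 0.05, against 326 of 20817 with it. More genes were tested without the filter, and the share called there is not given here. Junction genes at an unadjusted p under 0.05 numbered 5 with the skeletal muscle score as covariate (Dsc1, Perp, Dsg1a, Dsg1b and Gjb5, all higher, against 2.26% of all genes) and 2 with either GC correction. By exact permutation after the GC correction there were 2, Dsc1 and Gjb5 (2.24% of all genes), against 0, and 12 correlations passed against 3. The GC correction first used the longest transcript of any type, retained introns included, and was replaced after its values were seen.

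Signs of small estimates changed. With limma on FPKM they were 0.068 for Cldn1, 0.019 for Gjb2 and 0.031 for Dsc3. With the skeletal muscle score they were 0.13 for Cldn1, 0.30 for Gjb2, 0.16 for Dsg3, 0.17 for Dsc3 and 0.0054 for Gja1. Dsc3 was at 0.018 with at least 10 counts in every library, at 0.010 with the GC correction and at 0.013 with its first form, where Cldn1 was at 0.0055. F11r was at -0.0020 with the basal score. The causes were not tested.

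Leaving out 1 library gave 0 to 5 junction genes at an unadjusted p under 0.05, with 5 without MXL1 (Gjb5, Cdsn, Cldn23, Jup and Ppl, against 3.45% of all genes) and 0 without any of MR1, MR3, MR3_4, MR4_5, MXL12, MXL3_4 or MXL_3. All genes at that level were 217 to 734, the lowest without MR4_5 and the highest without MXL1, and other junction genes 0 to 2. By exact permutation 0 to 1 junction genes were called. Higher estimates numbered 13 to 29, with 13 without MR4_5 and without MXL_3 and 29 without MXL3_4, and the median log2 fold change ran from -0.12 to 0.16. Estimates ran from -0.072 to 0.39 for Dsp, -0.32 to 0.19 for Cldn1, -0.61 to 0.10 for Cgn, -0.12 to 0.16 for F11r, -0.14 to 0.28 for Cdh1, -0.39 to 0.21 for Gjb2, -0.70 to 0.13 for Dsg1c, -0.45 to 0.095 for Dsg3, -0.27 to 0.16 for Dsc3 and -0.33 to 0.18 for Gja1. Differences in ratios ran from -0.098 to 0.40 for Gjb2 to Gja1 and from -0.13 to 0.67 for Cldn4 to Cldn1.

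Codes 1, 3 and 3_4 occur in both groups. Deviations of libraries with the same code correlated at 0.26, 0.13 and -0.27 across genes. Libraries of unlike codes were not compared in this way, so a pairing was neither shown nor excluded. The replicate block on those 6 libraries called 0 other junction genes at an unadjusted p under 0.05, as did the fit without the block on the same libraries, and Gjb5 was called in both. With the block Dsp was at -0.14 and F11r at -0.077, and without it Dsp was at -0.21, F11r at -0.12, Cdh1 at -0.076 and Dsg1b at -0.032. With a common biological coefficient of variation of 0.477, the spread between libraries, not counting error, limits these comparisons.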
